A study of Mus musculus with 188 samples.

Results

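G6pdx and Ikbkg are 2 overlapping genes on the mouse X chromosome, transcribed from opposite strands, and their RNA was followed library by library in organotypic brain slice cultures exposed to hemoglobin (Hb), heme and the plasma proteins that bind them. They make up 2 of the 25655 genes listed in the count tables of batch 1 and 2 of the 25528 listed in those of batches 2 and 3, and both were counted in every library. The pair was chosen by its measured treatment responses in these libraries, so the levels, ratios and fold changes by treatment are given as a description and without a p-value. Where a member is said to be called, this gives the side of the threshold it fell on and is part of that description. P-values are given only for sex and culture round, which the choice did not use, and for other genes, whose lists were likewise chosen with earlier results of these data known.

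G6pdx encodes the enzyme of the first and rate-limiting step of the pentose phosphate pathway. The pathway branches from glycolysis and reduces NADP+ to NADPH, which glutathione reductase and thioredoxin reductase then spend on keeping thiols reduced, and which heme oxygenase and biliverdin reductase need for heme breakdown. Ikbkg encodes NEMO (IKKγ), the regulatory subunit that binds ubiquitin chains and holds the kinases IKKα and IKKβ in the IκB kinase complex. That complex marks IκB proteins for degradation and so frees NF-κB dimers to enter the nucleus. In neurons and glia NADPH from this pathway is known for limiting oxidant injury, and NEMO for survival signalling and inflammatory gene expression.

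Slices were cut coronally from the brains of male and female C57BL/6J mice 6 to 8 weeks old, kept on membrane inserts with 2 slices on each, and exposed on day 7 of culture. Batch 1 held 10 control libraries (medium only), 10 libraries each for heme-albumin at 12.5, 50, 200 and 400 µM, and 10 for heme bound to hemopexin (hemeHpx) at 200 µM, all taken at 24 h. Hemin complexed to human albumin served as a source of exchangeable heme, and hemopexin is the plasma protein that binds heme tightly. Batches 2 and 3 held controls (10 libraries at 24 h and 9 at 48 h), Hb at 200 and 400 µM (10 libraries for each dose and time), Hb bound to haptoglobin (HbHp) at 200 µM (8 at each time) and 400 µM (4 at 24 h and 5 at 48 h), and haptoglobin without Hb (Hp) at 400 µM (12 at 24 h and 11 at 48 h). All of these proteins were of human origin, and no transgene is named for the slices that were sequenced. The library names of batches 2 and 3 give a culture round, 1 or 2. Of 188 libraries, 167 fell into these 17 conditions, and 21 had labels that did not settle their group.

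In the GENCODE annotation of the GRCm38 build, G6pdx (ENSMUSG00000031400) runs on the minus strand of chromosome X from 74409483 to 74429194 with 4 annotated transcripts. Ikbkg (ENSMUSG00000004221) runs on the plus strand from 74393290 to 74453854 with 18 transcripts, so that the whole of G6pdx lies within the span of Ikbkg. Of the Ikbkg transcripts, 4 start before G6pdx, 7 inside it and 7 beyond it, and the nearest start beyond it lies 87 bases from the outermost G6pdx start, in the head-to-head arrangement. The outermost Ikbkg start is in turn 18 bases from the start of Fam3a. Exons of the 2 genes overlap on opposite strands over 418 bases (74427762 to 74428179), which is 13.6% of the exon length of G6pdx (3080 bases) and 5.15% of that of Ikbkg (8110 bases). Whether the reads were counted by strand is not given in the sources used here. Without strand, reads in the shared exon bases cannot be told apart.

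**Figure D1:**
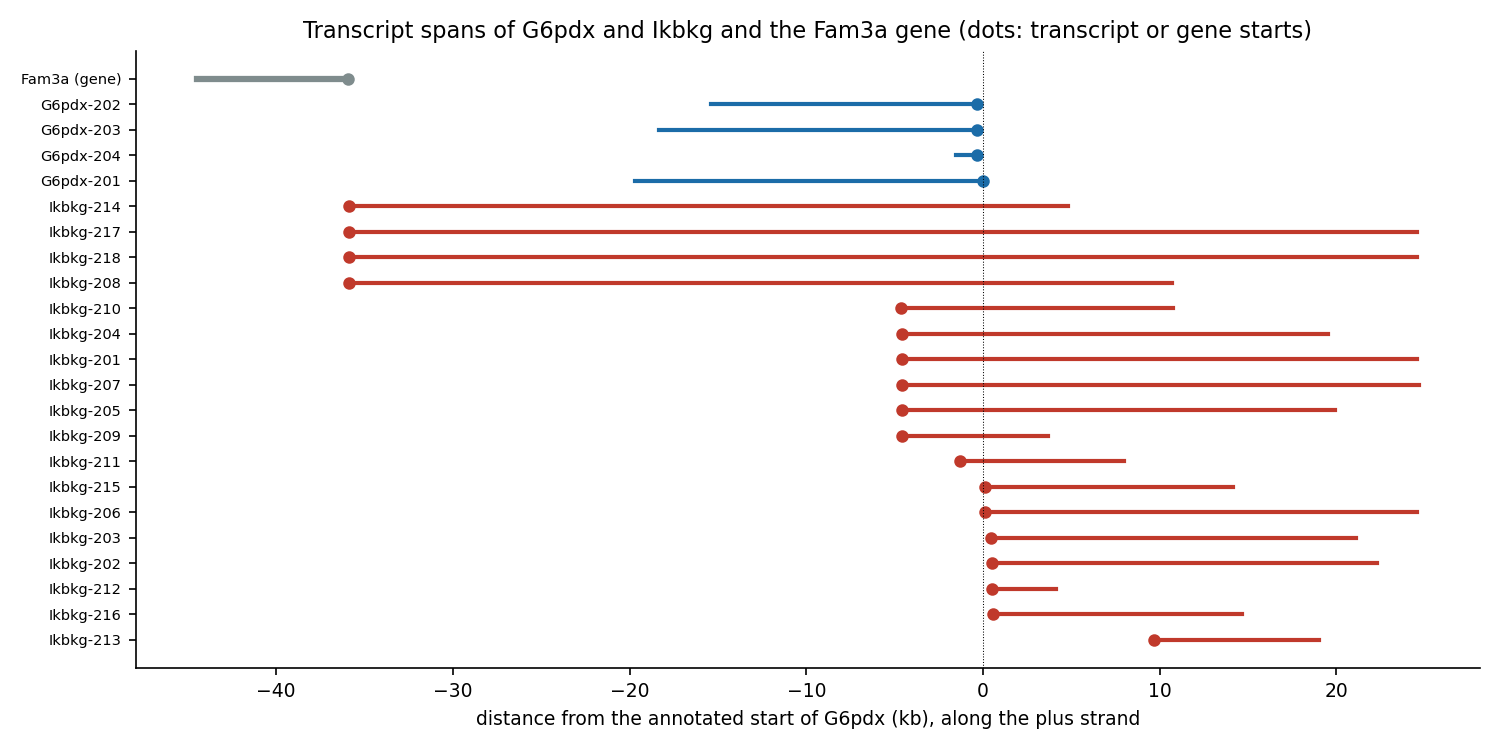
Transcript spans of G6pdx and Ikbkg and the Fam3a gene, drawn against the distance from the annotated start of G6pdx in kb along the plus strand (x axis); each row is a transcript or gene and each dot its start. All 4 G6pdx transcripts fall within the span of the longer Ikbkg transcripts, and the 18 Ikbkg starts lie before (4), inside (7) and beyond (7) G6pdx.

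RefSeq (GRCm38.p6) gave 1 promoter window for G6pdx and 4 for Ikbkg, and both symbols matched. As background, 3 of these windows are shown, each from 250 bases before to 50 bases after an annotated start. They are the G6pdx window (chrX:74428831-74429130, minus strand), the window of the outermost Ikbkg start (chrX:74393041-74393340, plus strand) and that of the Ikbkg start inside G6pdx (chrX:74424362-74424661, plus strand). Capitals mark matches on either strand to the core of the antioxidant response element (TGACNNNGC), which NRF2 binds with a small MAF protein, or to the AP-1 site (TGANTCA); the letters of the 2 motifs can overlap.
G6pdx: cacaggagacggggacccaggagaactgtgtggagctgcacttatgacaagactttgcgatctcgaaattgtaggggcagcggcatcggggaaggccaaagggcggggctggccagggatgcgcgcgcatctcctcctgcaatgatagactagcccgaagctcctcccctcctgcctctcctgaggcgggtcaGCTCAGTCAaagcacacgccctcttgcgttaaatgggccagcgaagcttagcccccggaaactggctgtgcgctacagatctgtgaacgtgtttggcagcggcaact
Ikbkg, outermost start: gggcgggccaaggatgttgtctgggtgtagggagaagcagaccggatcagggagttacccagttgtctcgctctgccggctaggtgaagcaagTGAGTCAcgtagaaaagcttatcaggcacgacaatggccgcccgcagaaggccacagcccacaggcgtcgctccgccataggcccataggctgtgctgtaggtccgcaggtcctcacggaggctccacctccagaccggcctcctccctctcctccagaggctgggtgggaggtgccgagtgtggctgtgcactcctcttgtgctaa
Ikbkg, start inside G6pdx: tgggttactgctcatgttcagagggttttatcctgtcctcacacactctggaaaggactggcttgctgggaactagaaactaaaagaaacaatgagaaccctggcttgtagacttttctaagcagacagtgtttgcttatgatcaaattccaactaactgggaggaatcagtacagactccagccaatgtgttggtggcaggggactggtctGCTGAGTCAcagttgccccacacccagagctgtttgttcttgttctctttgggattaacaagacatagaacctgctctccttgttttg
The G6pdx window held an antioxidant response element core on the reverse strand whose match begins 57 bases before the start. The window of the Ikbkg start inside G6pdx held the same core on the reverse strand 38 bases before the start, overlapped by an AP-1 site. The outermost Ikbkg window held an AP-1 site 157 bases before the start. Of the other two Ikbkg windows, that at 74429431 to 74429730 held an AP-1 site and 3 copies of CCGGAAG, a core bound by ETS factors, and that at 74429065 to 74429364 held none of the 8 motifs searched. GC boxes (GGGCGG) occurred in the G6pdx window and in the outermost Ikbkg window. Neither the NF-κB site, the TATA box (TATAAA), the E-box CACGTG nor the NRF1 core was found in any of the 5 windows. Among all 32851 promoter windows of that length in the table, 12.4% held the antioxidant response element core, 7.81% the AP-1 site, 35.7% the GC box, 8.86% CCGGAAG, 0.155% the NF-κB site, 13.6% the TATA box, 7.15% the E-box and 6.23% the NRF1 core. A match describes the letters of a window and does not show that a factor binds there. Whether any motif has a part in the treatment responses was not tested.

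Total counts ran from 11038484 to 44199060 per library in batch 1 and from 15587938 to 54174784 in batches 2 and 3. No library held fewer than 1860 G6pdx counts or 550 Ikbkg counts. Among 630 pairs of libraries of 1 group, none differed by as little as sampling noise. Y-linked transcripts summed to at least 129.6 CPM (read counts scaled to the library's size) in every library with a male letter and to at most 0.139 CPM in every other, so the sex letters held. Oligodendrocyte (12690 to 36440 CPM summed over 5 markers) and astrocyte markers were abundant in the groups, neuron markers lower (144.5 to 997.4 CPM), and red cell markers at or near 0 (at most 0.209 CPM). Choroid plexus markers varied from 0.193 to 3305 CPM between libraries, also within groups. Nothing in the labels says that libraries of a group came from separate animals, so p-values measure the spread between these libraries, which may in part be technical. As these are bulk samples, fewer cells of a type and less RNA per cell cannot be told apart.

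Libraries of the Hp group stood apart by culture round, for both genes. At 24 h the 6 Hp libraries of round 1 held 230.9 to 284.3 CPM of G6pdx and the 6 of round 2 held 147.4 to 194.4 CPM, without overlap. At 48 h the 5 of round 1 held 210.2 to 276.8 CPM and the 6 of round 2 held 148.1 to 160.4 CPM. Between these rounds of Hp 17.4% of all genes did not overlap at 24 h and 17% at 48 h, and among controls 19.8% and 41.9%, with G6pdx lower in round 2 at 48 h there too. Whether the Hp treatment was the same in both rounds is not given in the sources used here, which bears on every Hp value. Every HbHp library belonged to round 2 and batch 3, whereas controls and Hb libraries came from both rounds and both batches. Treatment effects in batches 2 and 3 are therefore given from a fit with batch and round as terms, and again from round 2 alone and, for Hb and HbHp, from a fit without the Hp libraries.

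In batch 1, the first question was how the pair followed the dose of exchangeable heme. Both transcripts were higher at every dose of heme-albumin than in controls, and from 50 µM upward neither gene's libraries overlapped with the controls. That held for 0.0836%, 0.817% and 2.1% of all genes at 50, 200 and 400 µM. Levels are CPM of the scaled library, given as mean ± SD with 10 libraries per group. For G6pdx the controls held 182 ± 16.8 CPM, from 155.4 through a median of 183.7 to 205.9. At 12.5 µM the lowest, median and highest G6pdx values were 187.7, 216.2 and 235.7 CPM, and 7 of 10 libraries lay above the highest control. At 50 µM they were 210.3, 252.3 and 273.7 CPM, and all 10 libraries lay above the controls. At 200 µM G6pdx reached 273 ± 24.6 CPM, with a median of 271.3 between 235.9 and 311.8. At 400 µM it held 271.1 ± 29.2 CPM, with a median of 266.3 between 221.7 and 310.7, so that the upper doses covered nearly the same range.

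Ikbkg, the less abundant of the pair in CPM, was likewise higher at each dose and had its highest mean at 400 µM. Controls held 53.77 ± 4.42 CPM, from 44.89 through 55.09 to 58.71. At 12.5 µM Ikbkg ranged from 57.64 through 64.18 to 71.84 CPM, with 9 of 10 libraries above the highest control. At 50 µM the values were 66.47, 72.29 and 78.24 CPM, and at 200 µM they were 73.12, 79.49 and 95.07 CPM. At 400 µM Ikbkg held 86.98 ± 6.43 CPM, with a median of 89.08 between 74 and 93.63. Ordered by level, each dose of Ikbkg overlapped with the next, and 6 of 10 libraries at 50 µM exceeded all of those at 12.5 µM.

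**Figure D2:**
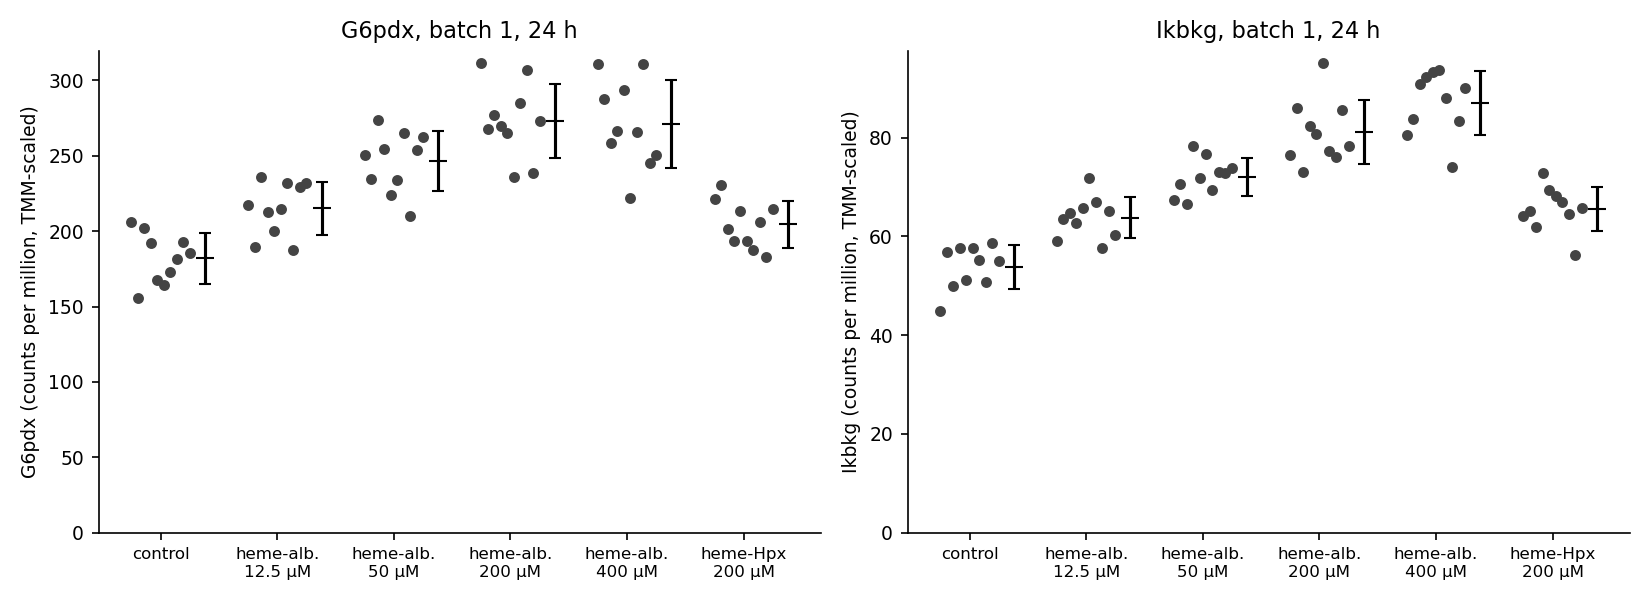
Levels of G6pdx and Ikbkg in batch 1 at 24 h (y axes: TMM-scaled CPM from 0; x axes: treatment and dose); points are libraries, 10 per group, and bars the mean ± SD. From 50 µM heme-albumin all 10 libraries of each group lie above the highest control for both genes, and hemeHpx libraries lie below all those of heme-albumin at the same dose.

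As log2 fold changes against control (edgeR, ± SE), G6pdx stood at 0.24 ± 0.059, 0.44 ± 0.059, 0.59 ± 0.059 and 0.57 ± 0.059 for 12.5, 50, 200 and 400 µM. The matching values of Ikbkg were 0.25 ± 0.047, 0.42 ± 0.047, 0.59 ± 0.047 and 0.69 ± 0.047. A gene is said to be called where its adjusted p over all genes was under 0.05. At 12.5 µM Ikbkg was called and G6pdx was not, where 0.045% of all 15554 genes tested were called. That split depended on the fit, since G6pdx was called with the replicate block (0.23) and Ikbkg was not called when the compared groups were fitted alone (0.24). Both were called at 50 µM (background 0.463%), at 200 µM (13.6%) and at 400 µM (29%). Between the steps of dose, G6pdx differed by 0.20 ± 0.058 from 12.5 to 50 µM, by 0.15 ± 0.058 from 50 to 200 µM and by -0.01 (95% interval -0.13 to 0.11) from 200 to 400 µM. For Ikbkg those steps were 0.18 ± 0.047, 0.17 ± 0.047 and 0.10 (95% interval 0.01 to 0.19). Neither gene was called in any of the 3 steps, where 0%, 0.797% and 1.27% of all genes were, although the Ikbkg step from 50 to 200 µM was called with DESeq2, a stricter filter on counts or the replicate block (0.17 to 0.18).

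Heme bound to hemopexin addressed whether the same dose of heme, tightly held, moved the pair as far. These libraries were taken by their treatment tag, which names hemopexin, while their titles name haptoglobin. Both genes were lower with hemeHpx than with heme-albumin at 200 µM in every library. G6pdx held 204.4 ± 15.5 CPM (182.6, 203.8 and 230.3 as lowest, median and highest; n = 10), and the highest of these lay below the lowest with heme-albumin (235.9). Ikbkg held 65.47 ± 4.47 CPM (56.17, 65.45 and 72.81), again all below the lowest with heme-albumin (73.12), a separation that 1.38% of all genes had in either direction. The differences from heme-albumin were -0.42 ± 0.059 for G6pdx and -0.31 ± 0.047 for Ikbkg, both called, as were 25.9% of all genes. Against control, hemeHpx gave 0.17 ± 0.059 for G6pdx, which was not called, and 0.28 ± 0.047 for Ikbkg, which was, where 8.2% of all genes were. The G6pdx value was called at nearly the same size with DESeq2 (0.16), with a stricter filter on counts (0.17) and with the replicate block (0.16). In single libraries, 5 of 10 exceeded the highest control for G6pdx and 9 of 10 for Ikbkg.

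In batches 2 and 3 free Hb was compared with control at 2 doses and 2 times, with 10 libraries in each Hb group. G6pdx was higher with Hb by 0.41 to 0.61 on the log2 scale in the 4 comparisons, and Ikbkg by 0.20 to 0.37. The 10 controls at 24 h held 156 ± 8.07 CPM of G6pdx (147.4, 153.3 and 175.2 as lowest, median and highest) and 58.51 ± 3.94 CPM of Ikbkg (52.94, 58.49 and 64.34). The 9 controls at 48 h held 161.6 ± 18.8 CPM (132.7, 158.3 and 196.3) and 57.57 ± 2.53 CPM (55.14, 56.38 and 61.71), and the times differed by 0.02 (95% interval -0.15 to 0.19) for G6pdx and -0.03 (-0.13 to 0.07) for Ikbkg.

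With Hb at 200 µM for 24 h G6pdx ranged from 168.9 through 206.1 to 287.9 CPM, with 9 of 10 libraries above the highest control. Ikbkg in the same libraries ranged from 65.28 through 66.52 to 71.85 CPM, just above the highest control in all 10, where 0.0304% of all genes did not overlap. At 400 µM for 24 h the G6pdx values were 191.9, 243.6 and 258.1 CPM, all above the controls (0.0607% of all genes did not overlap), and the Ikbkg values were 62.49, 71.72 and 77.42 CPM, with 9 of 10 above. After 48 h at 200 µM G6pdx ranged from 170.9 through 217 to 263.3 CPM and Ikbkg from 66.1 through 72.8 to 74.7 CPM. After 48 h at 400 µM they ranged from 175 through 219.7 to 283.6 CPM and from 68.79 through 74.7 to 77.62 CPM. At 48 h Ikbkg did not overlap with control at either dose (0.0789% and 0.0728% of all genes), while 9 of 10 and 8 of 10 G6pdx values lay above it.

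Adjusted for batch and round, Hb at 200 µM for 24 h gave 0.41 ± 0.082 for G6pdx, which was called, and 0.20 ± 0.049 for Ikbkg, which was not, beside 0.0971% of all 16473 genes called. Ikbkg was called at nearly the same value (0.21) without the Hp libraries, and G6pdx was not called in round 2 alone (0.37), which held 2 libraries of that group. At 400 µM for 24 h the values were 0.61 ± 0.083 and 0.28 ± 0.049, both called, with a background of 0.522%. At 48 h they were 0.45 ± 0.085 and 0.32 ± 0.050 at 200 µM (background 0.31%), and 0.50 ± 0.085 and 0.37 ± 0.050 at 400 µM (0.601%), all called. Round 1 alone gave 0.45, 0.53, 0.42 and 0.40 for G6pdx in that order of comparisons, and round 2 alone 0.37, 0.66, 0.53 and 0.72. For Ikbkg round 1 alone gave 0.22, 0.29, 0.30 and 0.34, and round 2 alone 0.18, 0.25, 0.32 and 0.38, of which the last was called and the others were not. Without the Hp libraries the G6pdx values were 0.43, 0.58, 0.43 and 0.47 and the Ikbkg values 0.21, 0.27, 0.31 and 0.35, all called.

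HbHp was set against control and against free Hb of the same dose and time, to see what binding to haptoglobin did to the response. Both genes were higher than the highest control of their time in every HbHp library, where between 0.577% and 4.67% of all genes did not overlap. Against free Hb of both rounds, the G6pdx levels overlapped at each dose and time, whereas nearly all Ikbkg levels lay above those with Hb. Within round 2, which holds all HbHp libraries but only 2 to 4 Hb libraries a group, G6pdx at 200 µM for 24 h did not overlap (5.81% of all genes), and Ikbkg at 400 µM for 24 h did. At 200 µM for 24 h the 8 libraries ranged from 220.3 through 239.5 to 250.5 CPM for G6pdx and from 75.25 through 79.83 to 84.28 CPM for Ikbkg, and at 48 h from 209 through 233.5 to 264.2 CPM and from 79.99 through 88.01 to 101.5 CPM.

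At 400 µM for 24 h the 4 libraries held 254.9, 216.9, 219.8 and 259 CPM of G6pdx and, in the same order, 89.47, 87.44, 88.85 and 77.1 CPM of Ikbkg. The library highest in G6pdx was the lowest in Ikbkg and the only male one of the group. At 48 h the 5 libraries held 250.3, 233.7, 203.1, 200.5 and 224.7 CPM of G6pdx and, in the same order, 91.54, 89.2, 112.6, 103 and 95.89 CPM of Ikbkg. The 2 libraries lowest in G6pdx were the 2 highest in Ikbkg, and these 5 had the highest mean Ikbkg level of the 12 conditions of batches 2 and 3 (98.44 ± 9.49 CPM).

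Against control, HbHp at 200 µM gave 0.68 ± 0.10 for G6pdx and 0.52 ± 0.061 for Ikbkg at 24 h (background 1.93%), and 0.66 ± 0.11 and 0.69 ± 0.062 at 48 h (11.9%). At 400 µM the values were 0.69 ± 0.12 and 0.62 ± 0.071 at 24 h (5.15%) and 0.57 ± 0.12 and 0.85 ± 0.068 at 48 h (11.9%). Both genes were called in all of these, also in round 2 alone and without the Hp libraries. Round 2 alone, with 3 and 2 controls, gave 0.55 and 0.46 for the pair at 200 µM for 24 h, 0.56 and 0.56 at 400 µM for 24 h, 0.71 and 0.64 at 200 µM for 48 h, and 0.62 and 0.80 at 400 µM for 48 h. Without the Hp libraries the G6pdx values were 0.57, 0.59, 0.55 and 0.46 in that order and the Ikbkg values 0.45, 0.56, 0.62 and 0.78.

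Against free Hb, Ikbkg was higher with HbHp by 0.33 ± 0.062 at 200 µM for 24 h (background 0.607%), 0.34 ± 0.071 at 400 µM for 24 h (2.21%), 0.37 ± 0.061 at 200 µM for 48 h (4.98%) and 0.48 ± 0.067 at 400 µM for 48 h (4.28%), and was called in each. The number of HbHp libraries above the highest Hb library for Ikbkg was 8 of 8, 3 of 4, 8 of 8 and 5 of 5, where 0.65%, 1.58%, 0.783% and 2.93% of all genes did not overlap. G6pdx differed by 0.27 ± 0.10, 0.08 ± 0.12, 0.21 ± 0.10 and 0.07 ± 0.11, was called in none, and had 0 of 8, 1 of 4, 1 of 8 and 0 of 5 libraries above. Its 95% intervals ran from 0.07 to 0.47, -0.15 to 0.32, 0.00 to 0.41 and -0.15 to 0.30 and hold increases of up to 0.47, so these values do not show that G6pdx was alike with HbHp and Hb. In round 2 alone Ikbkg differed by 0.28, 0.31, 0.31 and 0.41, the first of these not called, and G6pdx by 0.18, -0.10, 0.18 and -0.10. Without the Hp libraries Ikbkg differed by 0.25, 0.29, 0.31 and 0.43, all called, and G6pdx by 0.15, 0.01, 0.11 and -0.02, none called. Fitted on the compared groups alone, none of the 4 Ikbkg differences was called (0.24, 0.40, 0.26 and 0.37), and the G6pdx differences at 24 h turned negative (-0.11 and -0.13). With batch 3 alone, which holds all HbHp libraries, the Ikbkg difference at 200 µM for 48 h was not called (0.37). Comparisons against the same Hb or control libraries share those libraries.

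**Figure D3:**
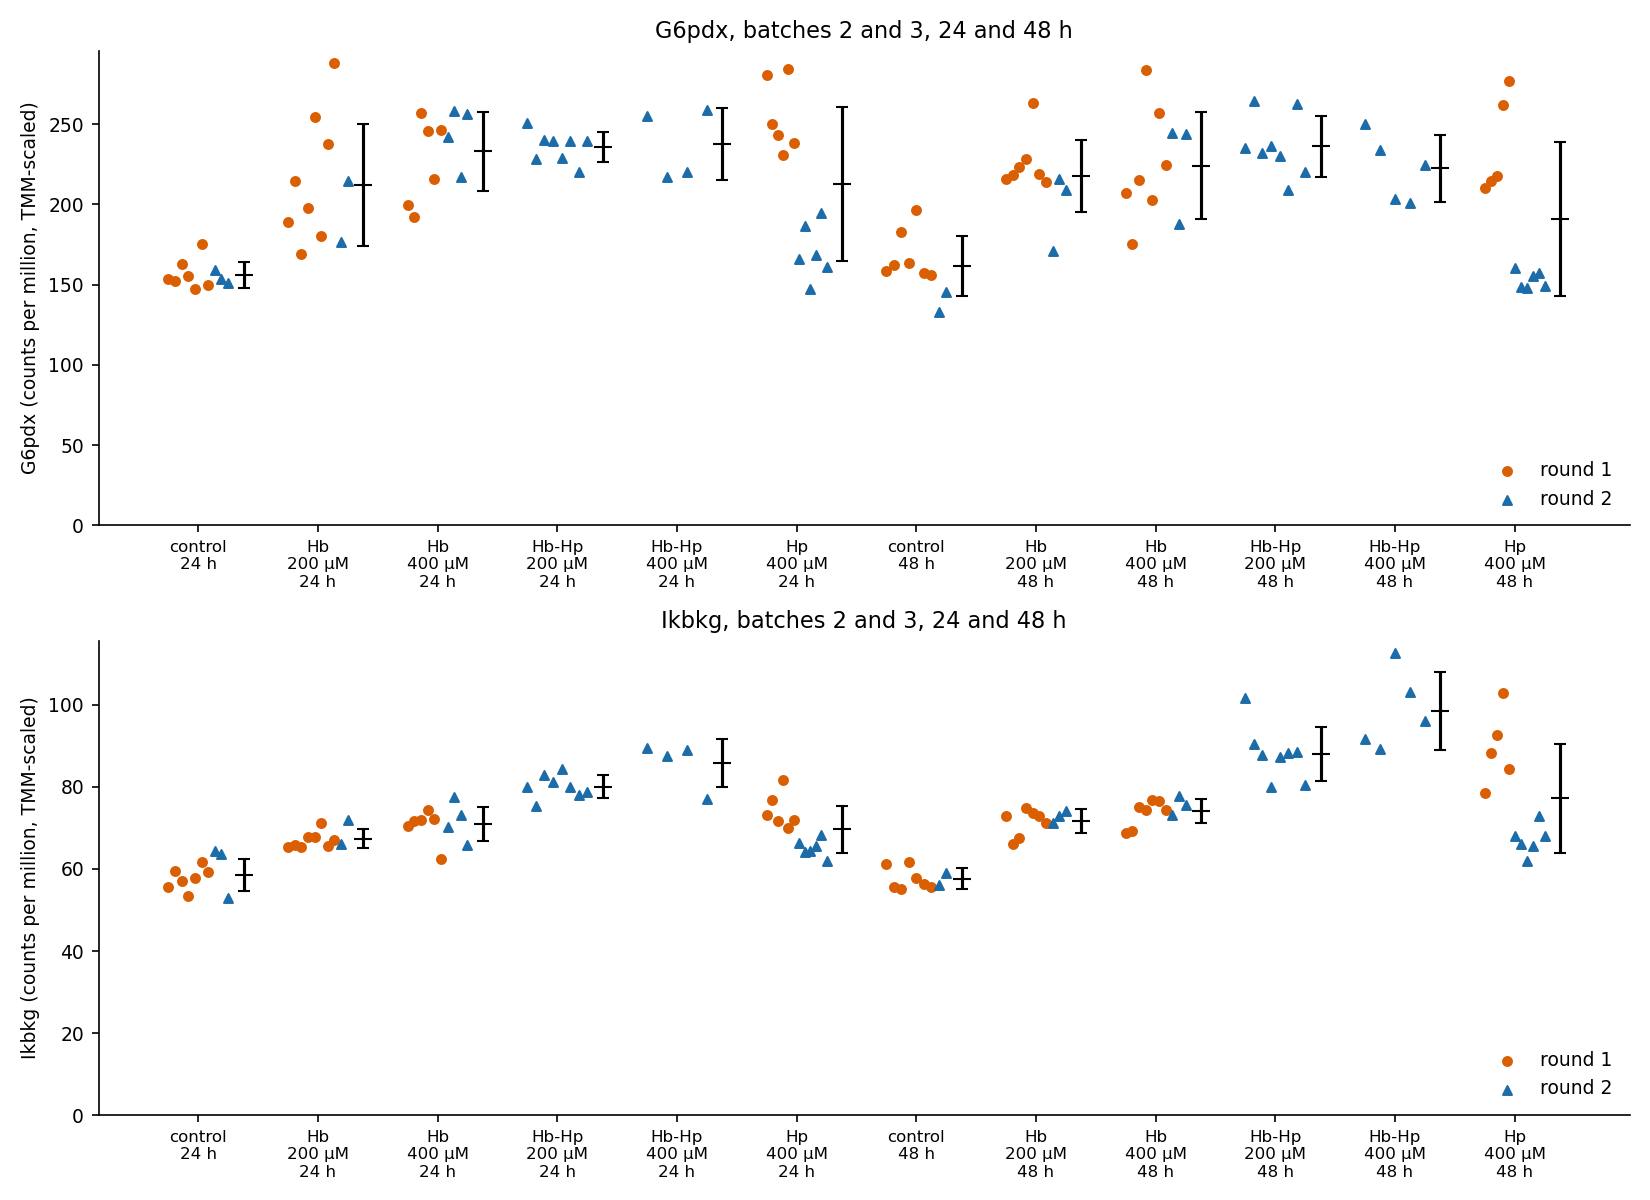
Levels of G6pdx and Ikbkg in batches 2 and 3 (y axes: TMM-scaled CPM from 0; x axes: treatment, dose and time); points are libraries, with a marker for each culture round, and bars the mean ± SD. Ikbkg is lowest in control, higher with Hb and highest with HbHp, G6pdx libraries with HbHp lie within the span of those with Hb over all doses and times, and the Hp libraries split by round.

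Haptoglobin without Hb gave values that differed between rounds. In the joint fit Hp at 400 µM gave 0.39 ± 0.093 for G6pdx and 0.29 ± 0.055 for Ikbkg at 24 h, both called (background 0.704%), and 0.22 ± 0.096 and 0.47 ± 0.057 at 48 h, of which Ikbkg alone was called (10.8%). At 24 h the G6pdx call was lost with the replicate block (0.34), without the round term (0.39) and with the compared groups alone (0.48), and the Ikbkg call with the compared groups alone (0.32). At 48 h the Ikbkg call was lost with the compared groups alone (0.42). Round 1 alone gave 0.64 and 0.41 at 24 h and 0.42 and 0.67 at 48 h, all called. Round 2 alone gave 0.08 and 0.16 at 24 h and 0.09 and 0.25 at 48 h, and none was called. The Ikbkg levels at 48 h were 78.58 to 102.9 CPM in the 5 libraries of round 1 and 61.93 to 72.96 CPM in the 6 of round 2. The difference between rounds in the effect of Hp, round 2 minus round 1, was estimated in edgeR with a term of its own, as a description, since the pair was chosen by treatment responses and the split was seen in the same libraries. At 48 h it was -0.43 ± 0.085 for Ikbkg and -0.32 ± 0.15 for G6pdx, where 3.61% of genes were called. At 24 h it was -0.25 ± 0.076 for Ikbkg and -0.53 ± 0.14 for G6pdx, where 0.124% were called. Within round 2, every HbHp library at 400 µM exceeded every Hp library of the same time for both genes, at 24 h with at least 216.9 against at most 194.4 CPM of G6pdx and at least 77.1 against at most 68.19 CPM of Ikbkg. At 48 h the bounds were 200.5 against 160.4 CPM and 89.2 against 72.96 CPM. Within that round 2.39% of all genes did not overlap at 24 h and 4.57% at 48 h, and over both rounds both members overlapped. In the joint fit HbHp exceeded Hp at 24 h by 0.30 ± 0.11 for G6pdx, not called, and 0.34 ± 0.064 for Ikbkg, called (background 0.619%), and at 48 h by 0.35 ± 0.10 and 0.39 ± 0.060, both called (1.44%). The G6pdx call at 48 h was lost whichever HbHp library was left out (0.31 to 0.38), without the round term (0.22), and with RLE scaling (0.35), no filter (0.35) or the stricter filter (0.34), and in round 2 alone G6pdx was called at both times (0.48 and 0.53).

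Over all 15 comparisons with control, both genes had positive fold changes in each; G6pdx was called in 3 of 5 in batch 1 and 9 of 10 in batches 2 and 3, and Ikbkg in 5 of 5 and 9 of 10, where between 0.045% and 29% of all genes were called. The pair differed in how the treatments ranked. G6pdx ran from 0.17 (hemeHpx) to 0.59 (heme-albumin, 200 µM) in batch 1, and from 0.22 (Hp, 48 h) to 0.69 (HbHp, 400 µM, 24 h) in batches 2 and 3. Ikbkg ran from 0.25 (heme-albumin, 12.5 µM) to 0.69 (heme-albumin, 400 µM), and from 0.20 (Hb, 200 µM, 24 h) to 0.85 (HbHp, 400 µM, 48 h). Comparisons with control share the control libraries of their time and batch, so these values are not independent.

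The ratio of the 2 counts within a library depends neither on depth nor on scaling. G6pdx counts were 2.368 to 4.586 times those of Ikbkg in batch 1 (median 3.275, 60 libraries) and 1.804 to 4.295 times in batches 2 and 3 (median 2.849). Per kilobase of annotated exon, G6pdx was the more abundant by a median of 8.63 times in batch 1 and 7.5 times in batches 2 and 3. That length joins the exons of all annotated transcripts (3080 bases for G6pdx, 8110 for Ikbkg) and need not match any single transcript. The per-kilobase ratio therefore depends on the annotation. In batch 1 the mean log2 ratio stayed near that of control through the heme-albumin series, at 1.76 ± 0.22 (SD) in control, 1.75 ± 0.13 at 12.5 µM, 1.77 ± 0.16 at 50 µM and 1.75 ± 0.23 at 200 µM. It was 1.64 ± 0.24 at 400 µM and 1.64 ± 0.14 with hemeHpx, in each case with 9 of 10 libraries inside the range of the controls.

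In batches 2 and 3 the mean ratio was above that of control with Hb and below it with HbHp at 400 µM for 48 h. Controls of both rounds stood at 1.42 ± 0.10 at 24 h and 1.48 ± 0.18 at 48 h, and those of round 2 alone at 1.36 ± 0.13 (n = 3) and 1.27 ± 0.040 (n = 2). With Hb for 24 h the log2 ratio was 1.64 ± 0.25 at 200 µM and 1.71 ± 0.19 at 400 µM, with 6 and 8 of 10 libraries above the highest control. After 48 h of Hb it was 1.60 ± 0.15 and 1.58 ± 0.20, with 1 of 10 libraries above in each. HbHp gave 1.56 ± 0.066 (n = 8) and 1.47 ± 0.21 (n = 4) at 24 h, and 1.42 ± 0.14 (n = 8) and 1.18 ± 0.26 (n = 5) at 48 h for 200 and 400 µM. All HbHp libraries were of round 2, so beside the round 2 controls HbHp at 200 µM for 48 h lay above control and not below it, and HbHp at 400 µM for 48 h was nearer to control. In the last group 3 of 5 libraries fell below the lowest control. Hp at 48 h stood at 1.40 ± 0.19 in round 1 (n = 5) and 1.19 ± 0.064 in round 2 (n = 6), while the controls of that time stood at 1.54 ± 0.15 in round 1 (n = 7). At 48 h the ratio was thus lower in round 2 in controls as well as with Hp. The mean difference of Hp from control was then -0.14 in round 1 and -0.08 in round 2. At 24 h that difference had the other sign, 0.34 in round 1 and 0.02 in round 2. In round 1 at 24 h 5 of 6 Hp libraries lay above the highest control.

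**Figure D4:**
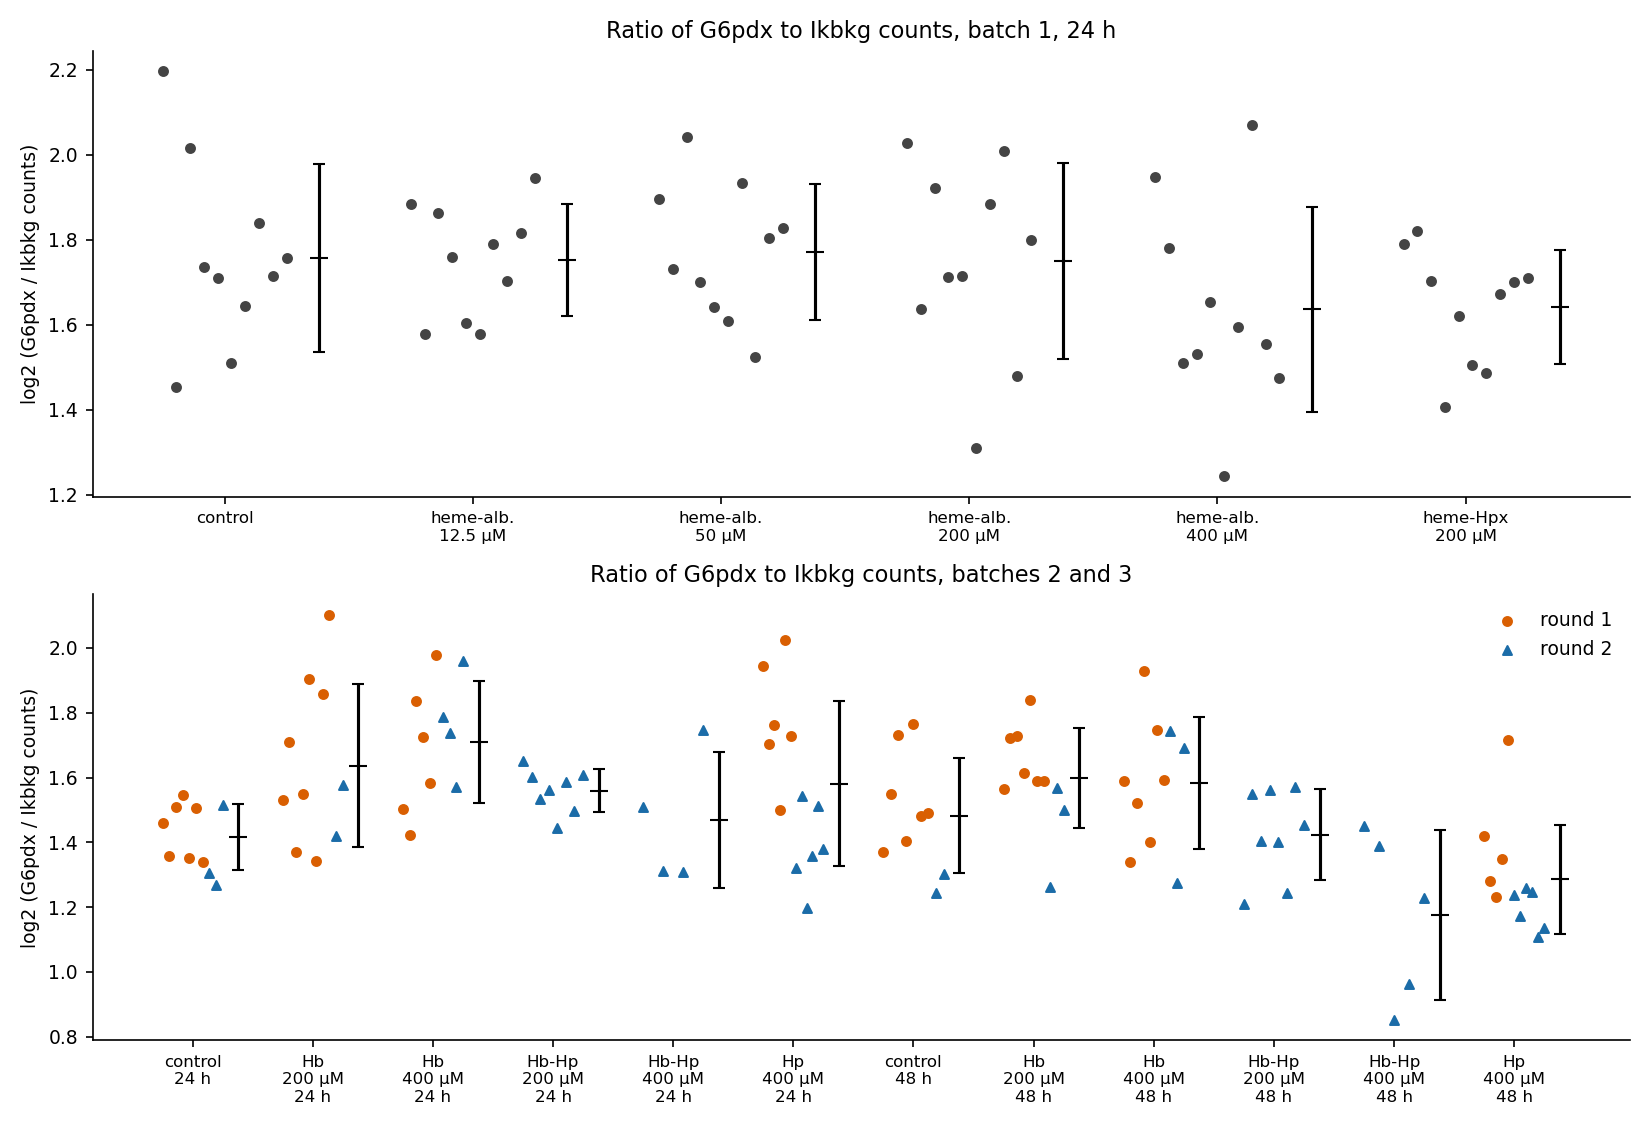
Log2 ratio of G6pdx to Ikbkg counts per library (y axes) by treatment (x axes), in batch 1 and in batches 2 and 3, with the mean ± SD and a marker for each round. In batch 1 nearly all treated libraries lie within the range of the controls; the lowest mean, 1.18, is that of HbHp at 400 µM for 48 h.

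Both genes lie on the X chromosome, and the libraries carry a sex letter that the choice of the pair did not use. In batch 1 the female minus male difference was -0.05 (95% interval -0.12 to 0.02) for G6pdx (edgeR, adjusted p = 0.384) and 0.02 (-0.04 to 0.07) for Ikbkg (adjusted p = 0.710), beside 2.71% of genes called. In batches 2 and 3 G6pdx was lower in female libraries, by -0.14 ± 0.033 (adjusted p = 0.00368), with a mean of 200.4 ± 35.4 CPM in 53 female and 217.6 ± 42.2 CPM in 54 male libraries. Ikbkg differed by -0.02 (-0.06 to 0.03; adjusted p = 0.688), and 12.8% of genes were called. Among controls alone the G6pdx difference was -0.09 (adjusted p = 0.622). Codes in the library names carry the sex letter and recur across groups, so these p-values treat libraries of the same code as independent. The male code E1M5 held the highest G6pdx of controls at 24 and 48 h (175.2 and 196.3 CPM). It was also highest with Hb at 200 µM for 48 h (263.3 CPM) and with Hp (284.3 and 276.8 CPM), but not in the other Hb groups. The part of single codes was not tested. Interactions of treatment with sex were tested for heme-albumin at 200 µM and Hb at 200 µM for 24 h. For G6pdx they were -0.03 (95% interval -0.28 to 0.22) and -0.23 (-0.53 to 0.08), and for Ikbkg -0.06 (-0.25 to 0.14) and -0.07 (-0.27 to 0.13), each with an adjusted p of 1. In edgeR 0% of genes had such an interaction in either case, with 358 of 15864 and 404 of 17449 genes at an unadjusted p under 0.05, and DESeq2 called 0 and 1.

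The culture round itself was a further comparison that the choice did not use. Round 2 minus round 1 gave -0.25 ± 0.044 for G6pdx (edgeR, adjusted p = 6.18e-07) and -0.07 ± 0.026 for Ikbkg (adjusted p = 0.0131), and 68% of all genes were called. Both values rest on the Hp libraries. Without them the differences were -0.08 (adjusted p = 0.139) and 0.04 (adjusted p = 0.158). The codes carry the round as well, so libraries of the same code are again treated as independent.

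Of the pentose phosphate pathway, the second dehydrogenase and the enzymes that recycle its sugars into glycolysis were higher along with G6pdx. With heme-albumin at 200 µM 4 of 9 list members were called higher and 0 lower, with a median of 0.12, while 6.98% of all genes were called higher and 6.60% lower and their median was -0.01. Apart from G6pdx these were Pgd, the second NADPH-producing dehydrogenase (0.59 ± 0.079, adjusted p = 1.35e-07), Tkt, a transketolase (0.50 ± 0.069, adjusted p = 3.52e-07), and Taldo1, a transaldolase (0.40 ± 0.084, adjusted p = 0.000590). Pgd rose from 118.6 ± 15.9 to 178.8 ± 22.5 CPM. Values for Pgls, the lactonase between the dehydrogenases (0.12), Rpia (0.06), Rpe (-0.11), Shpk (-0.22) and H6pd (0.04), the relative of G6pdx in the endoplasmic reticulum, were not called. With HbHp at 200 µM for 48 h 5 of 9 were called higher (Pgd 0.79 ± 0.094, Taldo1 0.65 ± 0.10, Tkt 0.29 ± 0.078, Rpe 0.22 ± 0.071 and G6pdx) and 0 lower, with a median of 0.24, against 7.04% of all genes higher and 4.85% lower and a median of -0.01 over all genes. Without the round term Tkt was not called there (0.06) and Pgls was called lower (-0.22, adjusted p = 0.0135). Across the 15 comparisons with control Pgd was called in 13, G6pdx in 12, Tkt in 10, Taldo1 in 8 and H6pd in 0 (edgeR, 2 at an unadjusted p under 0.05), while between 0.045% and 29% of all genes were called in those comparisons. G6pd2, a close copy of G6pdx, had at most 5 counts in any library. How reads that match both genes were handled is not given in the sources used here.

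With heme-albumin at 200 µM and HbHp at 200 µM for 48 h most enzymes that spend NADPH on redox defence were called higher, beside 6.98% and 7.04% of all genes called higher and 6.60% and 4.85% lower. With heme-albumin at 200 µM 6 of 9 NADPH users were higher and 0 lower (median 0.44), among them Nqo1, a quinone reductase (0.85 ± 0.083, adjusted p = 1.37e-11), Blvrb, a biliverdin reductase (0.81 ± 0.12, adjusted p = 3.38e-06), and Txnrd1, a thioredoxin reductase (0.61 ± 0.057, adjusted p = 3.75e-12). With HbHp at 200 µM for 48 h it was again 6 of 9 and 0 (median 0.65), led by Nqo1 (1.87 ± 0.23), Blvrb (1.21 ± 0.15) and the aldo-keto reductase Akr1b8 (1.13 ± 0.15). Elsewhere the users called higher ran from 0 of 9 with heme-albumin at 12.5 µM (0.0386% of all genes higher) through 3 of 9 with hemeHpx (3.77%) to 7 of 9 with heme-albumin at 400 µM (14.7%). Of 13 other NADPH producers 2 were higher with heme-albumin, Mthfd2 of mitochondrial folate metabolism (0.48 ± 0.079) and the malic enzyme Me1 (0.36 ± 0.066), and 1 was lower, the transhydrogenase Nnt (-0.20 ± 0.064). With HbHp 3 of 13 were higher, including Me1 (0.44 ± 0.097, but 0.06 and not called without the round term) and the isocitrate dehydrogenase Idh1 (0.28 ± 0.057), and 2 lower, including Aldh1l1 (-0.70 ± 0.24), whose call was lost with the replicate block (-0.62). Of 13 genes of glucose entry and glycolysis 2 were higher with heme-albumin, the glucose transporter Slc2a1 (0.27 ± 0.096) and the pyruvate kinase Pkm (0.13 ± 0.045), and 0 lower. With HbHp Slc2a1 was higher (0.40 ± 0.097), and the transporter Slc2a3 (-0.35 ± 0.11) and the phosphofructokinase Pfkl (-0.55 ± 0.19) were lower, the call of Pfkl being lost with the replicate block (-0.48). The median over these 13 was 0.08 with heme-albumin and -0.10 with HbHp.

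Of the IKK complex, the catalytic subunits were called in few or none of the comparisons with control, in which between 0.045% and 29% of all genes were called. Ikbkb (IKKβ) was called in 0 of 15 comparisons with control by edgeR, between -0.06 and 0.03 and never with an unadjusted p under 0.05, and stood at -0.02 with both heme-albumin at 200 µM and HbHp at 200 µM for 48 h. Chuk (IKKα) was called in 3 of 15, between -0.07 and 0.22, with 0.02 (adjusted p = 0.837) for heme-albumin and 0.22 ± 0.055 (adjusted p = 0.00458) for HbHp. Ikbkg, which was chosen for its response, was called in 14 of 15, between 0.20 and 0.85. Of 12 genes of the complex and of NF-κB itself 5, the chosen Ikbkg included, were called higher with heme-albumin at 200 µM and 0 lower (median 0.17), where 6.98% of all genes were higher. Among them were the NF-κB subunits Relb (0.50 ± 0.11, adjusted p = 0.000622) and Nfkb2 (0.33 ± 0.095, adjusted p = 0.0131) and the inhibitor Nfkbib (0.27 ± 0.075, adjusted p = 0.0116). With HbHp at 200 µM for 48 h 2 were higher, Ikbkg and Chuk, and 1 lower, Nfkb2 (-0.27 ± 0.095, adjusted p = 0.0436), with a median of -0.05, where 7.04% of all genes were higher and 4.85% lower. The Nfkb2 call was lost with the replicate block (-0.28). Optn, a relative of NEMO in sequence, held 194 to 1621 counts per library.

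Upstream of the complex, 1 of 16 adaptors, ligases and deubiquitinases was higher with heme-albumin, the adaptor Traf2 (0.33 ± 0.077, adjusted p = 0.00202), with a list median of 0.04, a share near the 6.98% of all genes called higher. With HbHp 4 of 16 were higher, among them Tab3 (0.29 ± 0.066) and the ligase Traf6 (0.23 ± 0.049), and 1 lower (median 0.10), beside 7.04% and 4.85% of all genes. Of 13 NF-κB target genes tested 6 were higher with heme-albumin and 0 lower, with a median of 0.18, beside 6.98% of all genes higher. They included the chemokines Cxcl2 (2.05 ± 0.47, adjusted p = 0.00158) and Cxcl10 (1.01 ± 0.33, adjusted p = 0.0295) and the prostaglandin synthase Ptgs2 (1.54 ± 0.27, adjusted p = 4.93e-05). With HbHp at 200 µM for 48 h Ptgs2 alone was higher (0.998 ± 0.27, adjusted p = 0.00806), and without the round term it was not called (0.60) while 2 other targets were. With the replicate block 2 of 13 were called higher. With heme-albumin at 400 µM 8 of 13 targets were called higher and 1 lower (median 1.02; 14.7% of all genes higher and 14.3% lower), and with HbHp at 400 µM for 48 h 7 of 13 higher (median 0.56; 7.39% higher). With HbHp at 400 µM for 24 h 1 of 13 was called higher (median -0.18; 3.10%). With hemeHpx at 200 µM, where Ikbkg stood at 0.28, 0 of the 13 were called by edgeR, 1 had an unadjusted p under 0.05, and 3.77% of all genes were called higher. Of 5 genes through which DNA damage reaches NEMO 0 were called with heme-albumin by edgeR or DESeq2 as fitted here, 1 was called higher by edgeR with the replicate block, 2 had an unadjusted p under 0.05, and Parp1 was lower with HbHp (-0.22 ± 0.063, adjusted p = 0.0119). With heme-albumin at 200 µM 5 of 6 microglia markers, 3 of 5 astrocyte markers and 2 of 4 markers of border macrophages were called lower, beside 6.60% of all genes. The summed microglia markers had a median of 249.3 CPM (128.5 to 378.4) against 370.3 CPM (172.1 to 920.4) in controls, and the astrocyte markers 7371 CPM (5850 to 10160) against 9927 CPM (7408 to 10970). At 400 µM 2 of 6 microglia, 4 of 5 astrocyte and 2 of 4 border macrophage markers were called lower, beside 14.3% of all genes. For hemeHpx against heme-albumin at 200 µM 5 of 6, 3 of 5 and 3 of 4 of these were called higher. So were 2 of 5 oligodendrocyte markers, beside 12.96% of all genes. The part of these shifts in the results above was not tested.

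Genes on either side of the pair on the X chromosome allow a look at whether the wider region moved. Of the 3 nearest tested genes on each side, Fam3a, Slc10a3 and Ubl4a before Ikbkg and Gab3, Dkc1 and Mpp1 after it, 5 were called in none of 15 comparisons with control by edgeR, where between 0.045% and 29% of all genes were called, although with the replicate block Ubl4a was called with heme-albumin at 200 µM (0.13, adjusted p = 0.0409). At an unadjusted p under 0.05 Dkc1 had 2 of the 15, Ubl4a 1 and Fam3a, Slc10a3 and Mpp1 0. Gab3 was called in 1, lower with heme-albumin at 200 µM (-0.62 ± 0.21, adjusted p = 0.0377). Fam3a, whose start is 18 bases from the outermost Ikbkg start, lay between -0.10 and 0.11 throughout, with 24.45 ± 3.11 CPM in controls and 23.41 ± 2.74 CPM with heme-albumin at 200 µM. Ubl4a ranged from -0.08 to 0.14, Slc10a3 from -0.10 to 0.16, Mpp1 from -0.09 to 0.19 and Dkc1 from -0.38 to 0.21. Slc10a3 and Ubl4a lie 19941 and 20072 bases from the span of the pair. Gab3, Dkc1 and Mpp1 lie 512989, 642000 and 655879 bases from it, so they say little about its near surroundings.

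**Figure D5:**
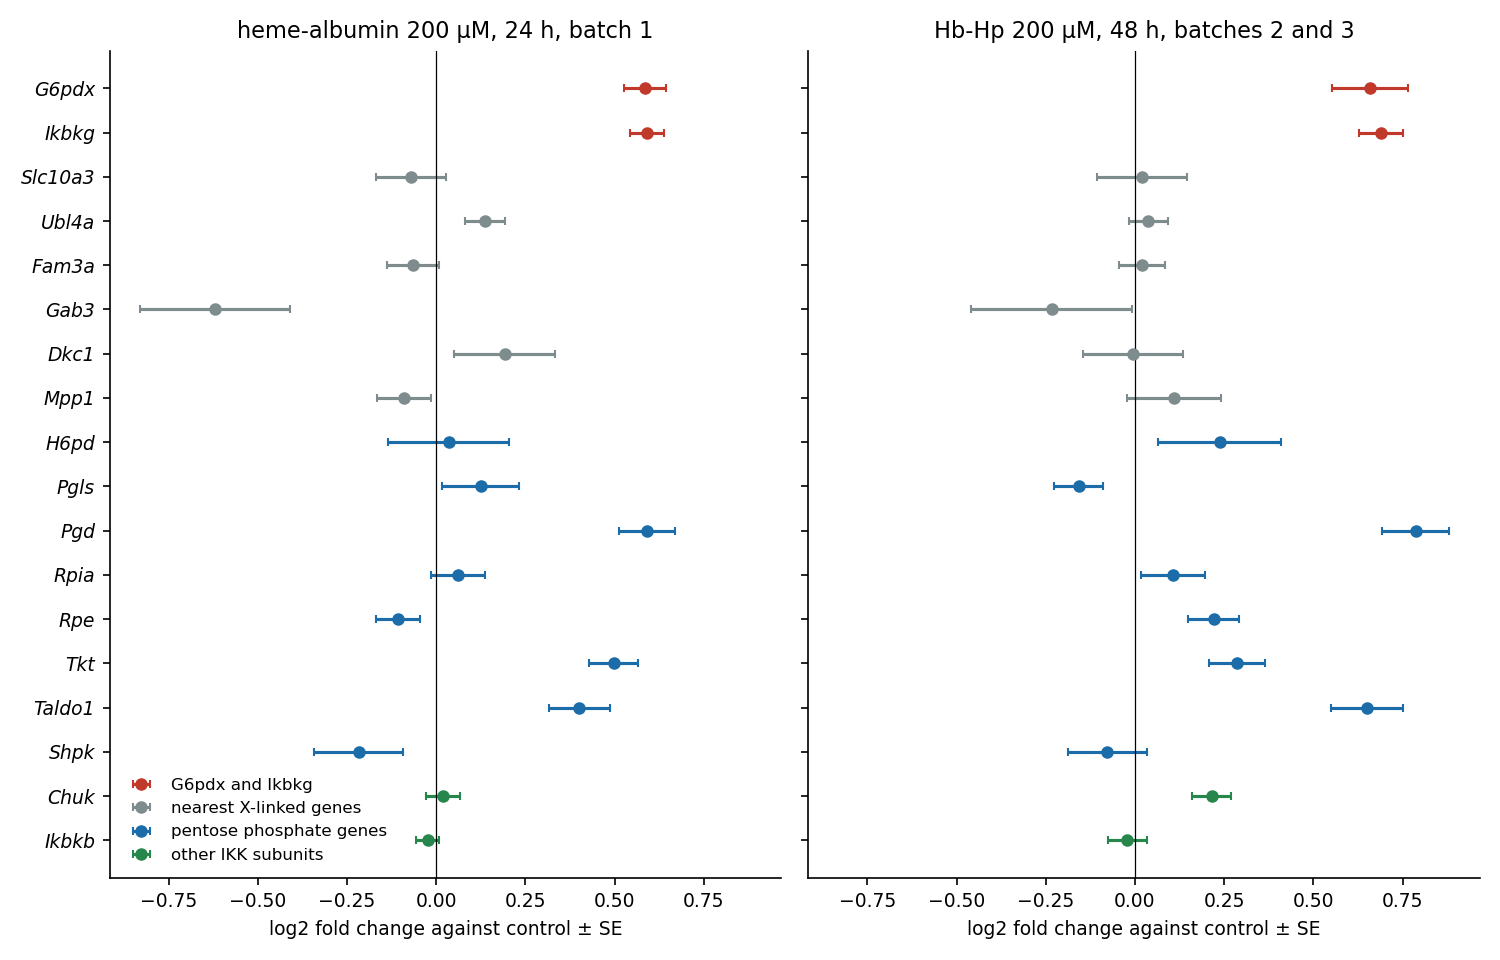
Log2 fold change against control ± SE (x axes) for G6pdx and Ikbkg, the pentose phosphate genes, the other IKK subunits and the nearest X-linked genes (y axes), with heme-albumin at 200 µM for 24 h and HbHp at 200 µM for 48 h. G6pdx, Ikbkg and Pgd lie to the right of 0 in both panels, while Ikbkb and Fam3a lie near 0.

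The genes most like each member across libraries were taken by Pearson correlation of log2 CPM, as a description. These libraries share treatments and, in each batch, scaling, and batch and round effects were removed in batches 2 and 3. In batch 1 (60 libraries, 14158 genes) the 5 nearest to G6pdx were Gstm1 (r = 0.921), Tkt (0.904), Gclm (0.892), Slc7a11 (0.883) and Ddit4l (0.873), and those nearest to Ikbkg were Abcc1 (0.900), Slc40a1 (0.899), Osgin1 (0.891), Tmem43 (0.886) and Slc48a1 (0.876). In batches 2 and 3 (14116 genes) G6pdx was nearest to Gclc (0.930), Slc7a11 (0.877), Osgin1 (0.875), Txnrd1 (0.873) and Me1 (0.868), and Ikbkg to Prdx1 (0.948), Esd (0.942), Gclm (0.930), Pgd (0.914) and Ypel5 (0.902). Slc7a11 imports cystine, and Gclm and Gclc are the subunits of the first enzyme of glutathione synthesis. Slc40a1 exports iron and Slc48a1 carries heme across membranes. The 2 members correlated with each other at r = 0.707 in batch 1, where Ikbkg ranked 237th for G6pdx and G6pdx 111th for Ikbkg, and at 0.673 in batches 2 and 3, with ranks of 45 and 170. Within groups, on residuals from the group means, the correlation of the pair was -0.35 in batch 1 and 0.41 in batches 2 and 3. In batches 2 and 3 batch and round were removed too, but as terms shared by all groups. The split of the Hp libraries by round thus stayed in the residuals, and its part in the 0.41 was not tested. On the same residuals 0 of the 5 genes named above were again among the 5 nearest for either member in batch 1, and in batches 2 and 3 2 of 5 were for G6pdx and 4 of 5 for Ikbkg.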

How the data were processed

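The deposited files hold raw counts per gene, which the authors made from TruSeq mRNA libraries with featureCounts on the GRCm39 build (submitters' processing notes, no versions given). The aligner and whether reads were counted by strand are not given in the sources used here. Symbols, coordinates and transcripts came from the GENCODE annotation of GRCm38, and promoters from RefSeq on the same build, so positions are those of another build than the counts. Batch 1 (60 libraries, 6 groups) and batches 2 and 3 (12 groups, with batch and round as terms) were fitted apart.

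All genes that passed filterByExpr (at least 10 counts in enough libraries, 15 in total; 15554 and 16473 genes) were fitted with edgeR 4.0.16 in R 4.3.3 (TMM scaling, quasi-likelihood test), and p-values were adjusted by Benjamini-Hochberg over all of them. A gene was called at an adjusted p under 0.05, and intervals are 95% intervals. SE is the log2 fold change divided by the root of its F. DESeq2 1.42.0 was an alternative, as were other scaling, filters, terms, subsets of libraries and left-out libraries. The pipeline was tested on simulated counts. Likeness used log2 CPM with a prior count of 2 and genes of at least 1 CPM on average.

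The 2 members and all gene lists were chosen with earlier results of these data known. Named were both members, every pentose phosphate gene, Chuk, Ikbkb and the paralogs, up to 3 called genes with the largest changes in each other list for heme-albumin at 200 µM and for HbHp at 200 µM for 48 h, the 3 nearest tested genes on each side, and the 5 genes most like each member in each set. Of the genes this rule names, 1 is not reported here. The 21 libraries with conflicting labels entered no comparison, 20 because title and tag name different scavenger proteins and 1 because its labels give different times. HemeHpx libraries were taken by their treatment tag, while their titles name haptoglobin.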

Additional observations from a re-analysis of the deposited data

Results flagged for a closer look

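In the 4 libraries of HbHp at 400 µM for 24 h, replicate 4 held 77.1 CPM of Ikbkg, while the other libraries held 87.44 to 89.47 CPM, a gap that is large for the range of the group. It was the 1 such library among 48 groups of levels and ratios examined, where about 1 in 20 would be marked by chance alone. Without it the log2 fold change against control was 0.67 in place of 0.62. Replicate 4 was the only male library of this group.

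The effect of Hp at 400 µM for 48 h on Ikbkg differed between culture rounds, by -0.43 (round 2 minus round 1), past the threshold of the edgeR term for that difference, with 5 libraries of round 1 and 6 of round 2. The gene was chosen by its treatment responses and the split was seen in the same libraries, so the value is a description.

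Among the 20 libraries labelled with conflicting scavenger proteins at 400 µM, Ikbkg exceeded the highest control of the same time in 10 of 10 at 24 h and 10 of 10 at 48 h, in CPM of the plain library total. G6pdx exceeded the highest control in 7 of 10 at 24 h, and these 7 were the libraries of round 1. The share of all genes that did so in these libraries was not taken, so how usual it is cannot be said.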

How the results depend on the processing

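Of 576 alternative values of the fold changes of G6pdx and Ikbkg, 560 lay within 1 SD between replicates of the reported value, 16 moved by more and 42 changed the call; the cause was not tested except where fewer libraries entered. For Hp at 400 µM, round 1 alone gave 0.6422 (G6pdx) and 0.409 (Ikbkg) at 24 h and 0.4195 and 0.6682 at 48 h, and round 2 alone 0.0798 and 0.1592 at 24 h and, for Ikbkg, 0.2511 at 48 h. Round 2 alone also gave G6pdx 0.7171 with Hb at 400 µM for 48 h and -0.1045 for HbHp against Hb at 400 µM for 24 h. Fitting the compared groups alone gave G6pdx -0.1127 and -0.1301 for HbHp against Hb at 24 h (200 and 400 µM) and Ikbkg 0.3678 at 400 µM for 48 h, where its call was lost. For HbHp against Hp at 48 h Ikbkg was 0.5442 in round 2 alone and 0.5435 with the compared groups alone. Batch 3 alone gave Ikbkg 0.4679 and 0.5104 for HbHp against Hb at 24 h. Of the lost or gained calls 10 came with the compared groups alone and 8 with round 2 alone, which hold fewer libraries.

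Among controls alone the sex difference in batches 2 and 3 was -0.0915 for G6pdx, no longer called, and 0.004 for Ikbkg, with the sign reversed. The round difference among controls alone was -0.1156 and 0.0418, and without the Hp libraries -0.0794 and 0.0374, so that Ikbkg changed sign. Without a round term, HbHp at 200 µM for 48 h gave Shpk 0.0348 and Gab3 0.0993, both reversed, and left Tkt (0.0605), Me1 (0.0566) and Ptgs2 (0.5989) uncalled, and Pgls was called lower (-0.2195). It also moved the list counts there, to 7 upstream genes and 2 NF-κB targets higher, and to 1 pathway gene, 4 other NADPH producers, 5 glycolytic genes, 2 genes of the IKK complex and NF-κB and 2 of the DNA damage list lower. Of 279 alternative values of other named genes 268 kept their direction and side of the threshold.

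Replicate codes were shared between groups, but libraries of the same code did not deviate together in every pair (correlations of -0.15 to 0.57 in batch 1, with a median of 0.31 against -0.03 for different codes, and -0.31 to 0.51 in batches 2 and 3), so the block is given as an alternative. With the replicate block all 50 member fold changes kept their direction and shifted by -0.07 to 0.02. It brought G6pdx past the threshold at heme-albumin 12.5 µM (0.2349) and hemeHpx (0.1568) and lost it at Hp 24 h (0.3355), and brought Ikbkg past it from 50 to 200 µM heme-albumin (0.1714), while Dkc1 with HbHp at 200 µM for 48 h turned to 0.0152. With the block Ubl4a was also called with heme-albumin at 200 µM (0.1282), where the upstream list had 3 called higher, the DNA damage list 1 and the other NADPH producers 2 lower. With HbHp at 200 µM for 48 h Pfkl (-0.4811), Nfkb2 (-0.2787) and Aldh1l1 (-0.6192) lost their calls, which left 1 glycolytic gene and 1 other NADPH producer lower, and NF-κB targets had 2 higher.

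Leaving out 1 library of the groups with under 6 libraries changed no member call except that of G6pdx for HbHp against Hp at 48 h, lost without any 1 of the 5 HbHp libraries (0.3057 to 0.3822) and, with all of them, without the round term (0.2206). For HbHp at 400 µM the ranges were 0.6458 to 0.7311 (G6pdx) and 0.6023 to 0.671 (Ikbkg) at 24 h and 0.519 to 0.5954 and 0.7829 to 0.886 at 48 h against control, and against Hb 0.0391 to 0.1244 and 0.3181 to 0.3868 at 24 h and 0.0228 to 0.0992 and 0.4174 to 0.5161 at 48 h. Leaving out a round 2 control, the HbHp values against control at both doses and times lay between 0.4967 and 0.8748, all called.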

Other observations

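The 20 libraries with conflicting labels (hemopexin in a tag, haptoglobin in the title, each at 400 µM with Hb) belong to no group, and their values stand here alone, scaled to the plain library total. At 24 h the 7 of round 1 held 183.6 to 216.9 CPM of G6pdx (median 205.2) and 69.63 to 80.36 CPM of Ikbkg (median 74.5), and the 3 of round 2 held 164.3 to 173.9 CPM and 71.22 to 78.98 CPM. The 10 controls held 146 to 180.9 CPM and 51.11 to 64.53 CPM. At 48 h the 7 of round 1 held 123.3 to 201.9 CPM of G6pdx (median 160.6) and 76.21 to 98.09 CPM of Ikbkg (median 81.38), the 3 of round 2 held 120.9 to 142 CPM and 66.56 to 78.49 CPM, and the 9 controls held 125.9 to 208.8 CPM and 53.12 to 62.43 CPM. At 48 h G6pdx thus lay within or below the range of the controls and Ikbkg above it. The log2 ratio of G6pdx to Ikbkg at 48 h ran from 0.636 to 1.196 in round 1 and from 0.669 to 1.093 in round 2, and all 10 values lay below the lowest control (1.245). No share over all genes or gene pairs was taken for these libraries. The control library with conflicting times held 143 CPM of G6pdx and 54.61 CPM of Ikbkg.

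In batch 1 the library names carry a code of a sex letter and a number. As deviations of the log2 ratio from the group mean, the 6 libraries with code M1 were all above their groups, by 0.13 to 0.44 with a mean of 0.24, and the 7 with code W1 all below, by -0.44 to -0.11 with a mean of -0.24. With M1 G6pdx was above its group by a mean of 0.13 and Ikbkg below it by -0.11, and with W1 the signs were the reverse (-0.12 and 0.12). The means of the other 7 codes lay between -0.08 and 0.12. What the codes stand for is not stated in the labels.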
